A study of Mus musculus with 4 samples.

Results

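The response to tumor necrosis factor (TNF) of mouse colonic organoid cells that lack TNF receptor 2 was described class by class, as cells of Tnfr2-/- cultures given TNF against cells of untreated Tnfr2-/- cultures. The members were the cells of every deposited class that held 15 or more cells in both Tnfr2-/- libraries. This left 1895 of the 2097 Tnfr2-/- cells, out of 6155 cells in the series, in 4 of 11 deposited classes. Untreated and TNF-treated libraries held 647 and 95 cells of Progenitor.1, 233 and 716 cells of Progenitor.2, 18 and 27 cells of Enteroendocrine, and 37 and 122 cells of Mesenchyme-Ptges. The organoids, cultures grown in a gel from the distal colon of 16-week-old mice, came from wildtype animals or from a whole-body knockout line of Tnfrsf1b, the gene of TNF receptor 2, so every cell type of the Tnfr2-/- cultures carried the deletion. TNF at 20 ng/ml was present from day 1 to day 6 after passage 5 and all cultures were harvested on day 7. Untreated Tnfr2-/-, TNF-treated Tnfr2-/-, untreated wildtype and TNF-treated wildtype cultures gave 1 library each, made with the 10x Chromium 3' chemistry after apoptotic cells had been depleted.

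TNF acts through TNF receptor 1, which most cells carry, and TNF receptor 2, which fewer cells carry. TNF receptor 1 recruits the adaptors TRADD, TRAF2 and RIPK1 and leads to NF-kB and MAP kinase signaling or to cell death, whereas TNF receptor 2 binds TRAF2 directly and has no death domain. NF-kB switches on its own inhibitors along with chemokines and enzymes such as inducible nitric oxide synthase, and in the colon TNF is a central cytokine of colitis.

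Unique molecular identifiers (UMIs, which count captured RNA molecules) of all cells that shared a class and a library were added up, and each gene's sum was divided by the total of all genes in that sum and put on the usual CPM scale. A difference is log2(CPM + 1) with TNF minus that without TNF. A gene rose or fell here where the difference was at least 2-fold and 1 of the 2 sums reached 20 CPM. With 1 library a side there was no test and no p-value. Intervals are exact at 95%, cover counting error only and leave out the spread between cultures, and the share of all genes past the limit in a class is given as background to the counts of its gene lists. All 4 classes shared the same libraries, so their values stand side by side and are not separate experiments.

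The Tnfr2-/- class sums ranged from 487637 UMIs (Enteroendocrine, TNF) to 36728642 UMIs (Progenitor.1, untreated). Median UMIs per cell were 46629 and 42680 in Progenitor.1, 33685 and 37714 in Progenitor.2, 23948 and 16407 in Enteroendocrine and 21965 and 37645 in Mesenchyme-Ptges, untreated and with TNF. The median share of mitochondrial UMIs per cell was higher with TNF in all 4 classes, by a change from 4.56% to 5.75%, from 4.21% to 6.14%, from 4.70% to 6.21% and from 2.94% to 4.15% in the same order, and its part in the differences below was not tested. In the Mesenchyme-Ptges sum, mitochondrially encoded genes went the other way, from 48340 to 44704 CPM. The 2 Tnfr2-/- libraries shared 0 cell barcodes.

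Tnfrsf1b, the deleted gene, was still counted at low levels, at 0.98 and 2.15 CPM (untreated and TNF) in Progenitor.1, 5.15 and 7.65 CPM in Progenitor.2, 0 and 10.3 CPM in Enteroendocrine and 16.8 and 13.4 CPM in Mesenchyme-Ptges. Reads of a 3' library can fall outside the deleted part of a gene, so these counts check nothing about the genotype. Tnfrsf1a, which encodes the remaining receptor, was present in every class, at 32.1 and 22.8 CPM in Progenitor.1, 41.9 and 32.9 CPM in Progenitor.2, 49.3 and 28.7 CPM in Enteroendocrine and 102 and 64.3 CPM in Mesenchyme-Ptges. Its level was lower with TNF in each, by less than 2-fold.

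The class names were checked against marker genes. Epithelial keratin and adhesion markers summed to between 6439 and 18190 CPM in the 3 epithelial classes, and mesenchymal markers to 13976 CPM untreated and 10130 CPM with TNF in Mesenchyme-Ptges. Enteroendocrine markers (Chga, Chgb, Neurod1, Pcsk1n, Scg5, Cryba2) summed to 31868 and 23833 CPM in Enteroendocrine. Cycling markers such as Mki67 and Top2a summed to 994 and 1230 CPM in Progenitor.1 but only to 37.0 and 49.0 CPM in Progenitor.2, where absorptive markers (Car1, Car4, Aqp8, Slc26a3, Krt20) summed to 731 and 570.1 CPM. Only 2 of these 5 absorptive genes reached a mean of 5 CPM there, so the sum does not stand for all of them. Cycling markers were thus low in Progenitor.2, and its deposited name is kept only as a name.

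Genes that were higher with TNF in all 4 Tnfr2-/- classes included several of sugar use and the low-oxygen response. Among the 3985 genes that reached the CPM minimum in every class, the 8 whose smallest rise over the 4 classes was largest were Pfkfb3, Ero1l, Aldoc, Neat1, Nedd9, Slc2a1, Ndrg1 and Dusp4. Pfkfb3, whose enzyme makes the strongest activator of glycolysis, Aldoc, a glycolytic aldolase, and Slc2a1, the glucose transporter GLUT1, act in glucose breakdown. Ero1l forms disulfide bonds in the endoplasmic reticulum, Ndrg1 is a stress-response gene that low oxygen induces, Neat1 is the long noncoding RNA of paraspeckles, Nedd9 is an adhesion scaffold and Dusp4 dephosphorylates MAP kinases. The rule chose these genes by their differences, so the values below describe them.

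Low-oxygen genes often carry the letters ACGTG, the core that hypoxia-inducible factors bind. Upstream sequences are shown for 4 of these genes, those with the letters on either strand in the 170 bases printed. Each line gives the 170 bases before a RefSeq start site on GRCm38.p6, 5′ to 3′ along the gene, with ACGTG or its reverse complement CACGT in capitals.
Pfkfb3 (chr2:11502091-11502260, minus strand): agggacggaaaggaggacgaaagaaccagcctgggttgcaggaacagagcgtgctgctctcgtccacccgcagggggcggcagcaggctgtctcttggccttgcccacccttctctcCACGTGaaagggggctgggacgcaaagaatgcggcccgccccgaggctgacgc
Ero1l (chr14:45318573-45318742, minus strand): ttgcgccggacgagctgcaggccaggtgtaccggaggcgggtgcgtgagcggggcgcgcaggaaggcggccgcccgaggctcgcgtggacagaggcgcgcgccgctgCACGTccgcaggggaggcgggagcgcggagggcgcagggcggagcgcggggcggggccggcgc
Nedd9 (chr13:41359002-41359171, minus strand): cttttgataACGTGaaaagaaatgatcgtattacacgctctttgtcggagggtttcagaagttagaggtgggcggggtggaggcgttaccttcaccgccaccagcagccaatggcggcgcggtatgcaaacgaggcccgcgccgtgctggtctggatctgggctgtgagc
Slc2a1 (chr4:119108575-119108744, plus strand): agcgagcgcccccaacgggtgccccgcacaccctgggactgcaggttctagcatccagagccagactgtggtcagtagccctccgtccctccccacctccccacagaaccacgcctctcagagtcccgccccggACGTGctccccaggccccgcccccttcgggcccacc
Capitals in the Pfkfb3 line read CACGTG, which holds the core on both strands and is also the E-box, so the letters cannot tell these motifs apart. ACGTG on either strand occurred in the window from 250 bases before to 50 bases after the start in 6447 of 32851 RefSeq mouse promoters (19.62%). RefSeq promoters were matched for 5 of the 8 genes, Ero1l under the symbol Ero1a, and each of the 5 had a promoter with the letters (6 of 7 promoters). Aldoc, which is not shown, had 1 promoter with the letters only after the start, from base 28, and 1 without them. Pfkfb3 had 2 promoters with the letters, of which 1 is shown. The letters describe the sequence and do not show binding.

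Pfkfb3 (chr2:11471433-11554077 on GRCm38) went from 7.87 CPM untreated to 28.3 CPM with TNF in Progenitor.1, from 51.5 to 111 CPM in Progenitor.2, from 31.0 to 98.4 CPM in Enteroendocrine and from 18.0 to 42.5 CPM in Mesenchyme-Ptges. Its ratio ranged from 2.15-fold (interval 1.96 to 2.36) in Progenitor.2 to 3.59-fold (2.92 to 4.40) in Progenitor.1, and it passed the limit in all 4 classes. Without cells whose epithelial markers exceeded 0.1% of UMIs, its Mesenchyme-Ptges difference went from 1.195 to 0.80, within 2-fold. In wildtype cells the log2 differences of Pfkfb3 were 1.41, 2.37, 0.16 and 2.52 in the same order of classes.

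Ero1l (chr14:45283087-45318771) went from 51.9 to 190.3 CPM in Progenitor.1, from 461 to 1199 CPM in Progenitor.2 and from 117 to 1075 CPM in Enteroendocrine, a 9.20-fold rise (7.09 to 12.1) that 26 of 27 TNF cells of that class shared with at least 1 UMI. In Mesenchyme-Ptges it went from 1124 to 2239 CPM, just short of the limit at a difference of 0.99. The wildtype differences of Ero1l were 0.81, 2.02, 0.89 and 2.08.

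Ndrg1 went from 14.7 to 71.0 CPM in Progenitor.1, where 35.2% of the TNF UMIs came from 1 cell and the difference was 2.20 with and 1.69 without the top cell of each library. It went from 254 to 572 CPM in Progenitor.2, from 157 to 320 CPM in Enteroendocrine and from 472 to 728 CPM in Mesenchyme-Ptges, the last within 2-fold. Dusp4 rose past the limit in Mesenchyme-Ptges alone, from 8.41 to 37.9 CPM, with differences of 0.61 to 0.95 in the 3 epithelial classes. Aldoc rose in Progenitor.2, Enteroendocrine and Mesenchyme-Ptges, with differences from 0.89 to 1.46 over the 4 classes. Slc2a1 and Nedd9 passed the limit in Enteroendocrine alone, at 1.41 and 2.14, and Neat1 in Progenitor.1 and Enteroendocrine, at 1.06 and 1.53.

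**Figure D1:**
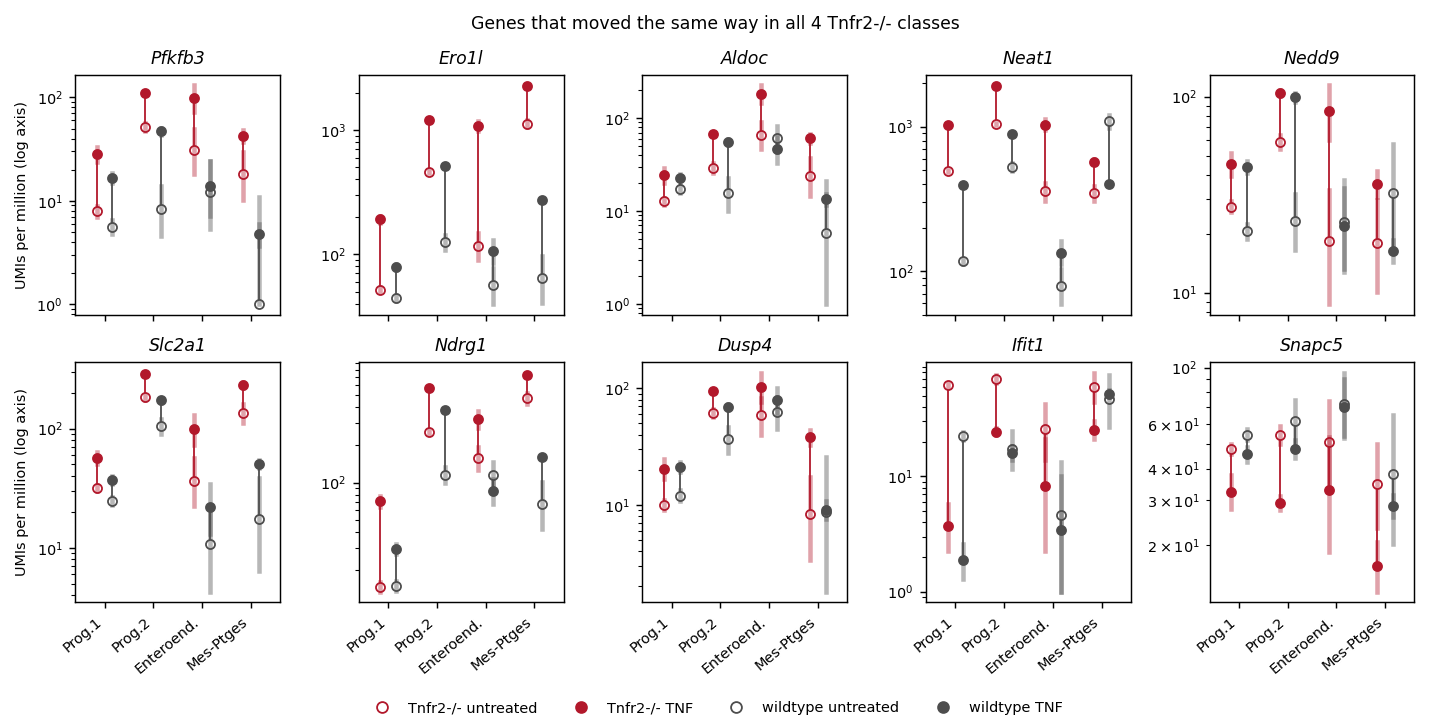
Summed expression (CPM, log axis) of 8 genes that were higher with TNF and of Ifit1 and Snapc5, which were lower, in all 4 Tnfr2-/- classes, in the untreated (open) and TNF-treated (filled) library of each genotype, with values under 1 CPM drawn at 1. Each line joins the 2 libraries of 1 genotype in 1 class, wide pale bars are exact 95% counting intervals, and the Tnfr2-/- lines of Pfkfb3 slope upward in all 4 classes.

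An interferon target led the genes that were lower in all 4 classes. Ifit1, an antiviral RNA-binding protein induced by interferon, went from 62.1 to 3.71 CPM in Progenitor.1, from 70.0 to 24.5 CPM in Progenitor.2, from 25.5 to 8.20 CPM in Enteroendocrine and from 60.0 to 25.4 CPM in Mesenchyme-Ptges. In Mesenchyme-Ptges 70.0% of the untreated Ifit1 UMIs came from 1 cell, and the difference of -1.21 became 0.25 without the top cell of each library. Snapc5, Hypk and Wdr18 were also lower in all 4 classes by the same rule, with differences between -1.13 and -0.50 and few past the limit.

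Genes of glycolysis and the low-oxygen response were higher with TNF as a list in the epithelial classes. The list did not hold Pfkfb3 or Aldoc, described above, which also rose in Progenitor.2 and Mesenchyme-Ptges. It did hold Ero1l and Ndrg1, which were chosen above by these same differences, so its counts are not separate from that choice. In Progenitor.1, 8 of 24 tested list members rose and none fell, against 65 of 6002 genes that rose (1.08%) and 56 that fell (0.933%). The median difference over list members at 5 CPM or more was 0.72, beside -0.02 over all genes, and 24 of 25 members lay above 0. Slc16a3, the exporter of lactate, went from 6.75 to 42.1 CPM (6.24-fold, 5.17 to 7.52). Bnip3, a mitophagy receptor that low oxygen induces, went from 23.7 to 116 CPM (4.91-fold, 4.42 to 5.46). Egln3, an oxygen-sensing prolyl hydroxylase that hypoxia-inducible factors themselves induce, went from 68.5 to 179 CPM. Pgk1, which makes ATP in glycolysis, went from 452 to 921 CPM, and Ldha, lactate dehydrogenase A, from 703 to 1160 CPM, within 2-fold. In wildtype Progenitor.1 cells 1 member rose and the median was 0.22.

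In Progenitor.2 3 of 25 tested members of the list rose, Ndrg1, Ero1l and Egln3 (311 to 641 CPM), beside 48 of 5687 genes (0.844%) that rose and 65 (1.14%) that fell. Its median was 0.66 beside -0.12 over all genes, with 25 of 26 members above 0. Wildtype Progenitor.2 cells had 20 members that rose and a median of 1.45. In Enteroendocrine 20 of 25 members rose and none fell, beside 483 of 7279 genes (6.64%) that rose and 670 (9.2%) that fell, and the median was 1.39 beside -0.09. Egln3 went from 60.2 to 314 CPM there, Bnip3 from 221 to 929 CPM with UMIs in 27 of 27 TNF cells, Pgk1 from 467 to 1409 CPM, and Adm, the vasodilator adrenomedullin, from 10.9 to 71.8 CPM. Without each gene's top cell in each library the list had 24 members that rose. Wildtype Enteroendocrine had 4 members that rose and a median of 0.61.

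In Mesenchyme-Ptges only Adm (117 to 273 CPM, 2.34-fold, 1.91 to 2.91) rose among 25 tested members, beside 316 of 6220 genes (5.08%) that rose and 226 (3.63%) that fell. The median of 0.22 was beside -0.06 over all genes, while wildtype Mesenchyme-Ptges had 10 members that rose and a median of 0.92. The order of the Tnfr2-/- classes in this list, from Enteroendocrine through both progenitor classes to Mesenchyme-Ptges, was not the order in wildtype, where Progenitor.2 had the highest median. The difference between genotypes was not tested.

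Interferon-stimulated genes were lower with TNF in Tnfr2-/- epithelium, most of all in Progenitor.1. There 16 of 21 tested members fell, beside 0.933% of all genes, and none rose, all 33 members at 5 CPM or more lay below 0, and the median was -1.95. Isg15, a ubiquitin-like protein that interferon induces, went from 153 to 13.3 CPM (11.5-fold lower, 9.08 to 14.9). It had a UMI in 313 of 647 untreated cells and in 18 of 95 TNF cells. After thinning every cell to 5000 UMIs the shares were 23.3% (20.1% to 26.8%) and 8.51% (3.75% to 16.1%). Irf7, the transcription factor that amplifies interferon production, went from 59.0 to 6.04 CPM, and Oasl2, an antiviral gene, from 40.9 to 3.71 CPM. Ifit3 had 1009 UMIs in 79 of 647 untreated cells (27.5 CPM) and 0 UMIs in 95 TNF cells. Bst2, the virion-tethering protein tetherin, went from 306 to 119.5 CPM with counts in many cells.

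Cxcl10, an interferon-induced chemokine that is also an NF-kB target, followed this list in Progenitor.1, from 74.2 to 17.0 CPM. Its difference was 0.57 in Progenitor.2, where neither sum reached the 20 CPM minimum, and 2.42 in Enteroendocrine, a class of only 18 and 27 cells. In the Progenitor.1 sum the whole list went from 1510 to 470 CPM, and 16 members still fell without the top cell of each library. In Progenitor.2 8 of 21 members fell, beside 1.14% of all genes (median -0.80), among them Ifit3 (31.2 to 6.73 CPM) and Isg15 (132 to 54.4 CPM). In Enteroendocrine 4 of 11 fell and 1 rose (median -0.75), beside 9.2% and 6.64% of all genes, but its Isg15 value rested on 1 untreated cell with all 19 UMIs. Mesenchyme-Ptges had 4 of 26 members lower (Ifit1, Ifit3 and Iigp1 among them) and 3 higher (Gbp2, Irf7 and Parp14), beside 3.63% and 5.08% of all genes, a median of 0.24 and Gbp2 going from 24.02 to 67.5 CPM. Wildtype cells had 4 of 10 members that fell in Progenitor.1 (median -0.66) and 4 of 18 in Progenitor.2 (median -0.37), whereas 2 rose in Enteroendocrine and 10 of 30 in Mesenchyme-Ptges.

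NF-kB inhibitors and targets differed between classes in how many passed the limit. In Progenitor.1 4 of 21 tested genes rose (Nos2, Ccl20, Cxcl5, Gadd45b), beside 1.08% of all genes, and none fell, with a median of 0.28, against 13 of 22 and a median of 1.06 in wildtype. In Progenitor.2 1 of 28 rose (Nos2) and 4 fell (Ccl2, Cxcl5, Ptgs2, Csf1), beside 0.844% and 1.14% of all genes, with a median of -0.01 that changed sign to 0.16 with TMM factors, against 7 that rose, 2 that fell and a median of 0.49 in wildtype. In Mesenchyme-Ptges 8 of 31 rose, beside 5.08% of all genes, and none fell, with a median of 0.63, against 13 that rose and a median of 0.72 in wildtype. In Enteroendocrine 5 of 19 rose and 3 fell, beside 6.64% and 9.2% of all genes, with a median of 0.24.

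Nos2, the inducible nitric oxide synthase (chr11:78920787-78960254), rose in both progenitor classes and in Mesenchyme-Ptges. It went from 13.6 to 63.4 CPM in Progenitor.1 (4.67-fold, 4.05 to 5.39), from 120.1 to 296 CPM in Progenitor.2 (2.46-fold, 2.32 to 2.62) and from 33.6 to 95.6 CPM in Mesenchyme-Ptges (2.84-fold, 1.94 to 4.33). The share of Progenitor.2 cells with a Nos2 UMI after thinning went from 23.6% (18.2% to 29.6%) to 55.6% (51.9% to 59.3%), or from 50.6% to 83.1% unthinned. In Enteroendocrine the thinned shares were 5.56% and 3.70%. In wildtype cells Nos2 went from 0.87 to 82.4 CPM in Progenitor.1 and from 10.7 to 291 CPM in Progenitor.2. In Progenitor.2 the levels with TNF were 296 CPM in Tnfr2-/- and 291 CPM in wildtype, while the untreated levels were 120.1 and 10.7 CPM.

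Nox1, an epithelial superoxide-producing oxidase, rose with it, from 56.1 to 134 CPM in Progenitor.1 and from 9.79 to 22.5 CPM in Progenitor.2. The ferroxidase Cp, ceruloplasmin, went from 46.0 to 179 CPM in Progenitor.1 (3.90-fold, 3.59 to 4.22). Ccl20, which attracts lymphocytes and dendritic cells, went from 32.6 to 98.7 CPM in Progenitor.1 but from 91.5 to 72.3 CPM in Progenitor.2. In wildtype it rose in both, by 3.50 and 2.06 on the log2 scale.

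The feedback inhibitors Nfkbia (IkB alpha) and Tnfaip3 (A20) were higher with TNF within 2-fold in both progenitor classes. Nfkbia went from 243 to 365 CPM in Progenitor.1 and from 511 to 614 CPM in Progenitor.2, and Tnfaip3 from 23.1 to 43.7 CPM and from 68.9 to 102 CPM. Both passed the limit in Enteroendocrine, Nfkbia from 146 to 338 CPM with UMIs in 26 of 27 TNF cells and Tnfaip3 from 14.6 to 53.3 CPM. In wildtype progenitors both passed it in both classes, with differences from 1.10 to 1.22. Birc3, an inhibitor of apoptosis, had a difference of 0.19 in Tnfr2-/- Progenitor.1 and 1.27 in wildtype, and Relb, a subunit of noncanonical NF-kB, 0.73 and 1.86.

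Receptors and proximal adaptors of the TNF pathway showed 0 of 16 tested genes past the limit in Progenitor.1, 0 of 18 in Progenitor.2 and 0 of 18 in Mesenchyme-Ptges. In Enteroendocrine 3 of 19 rose (Mapk8, Tab3 and Traf3), beside 6.64% of all genes. The chemokine list was short, with 2 of 7 higher and 2 lower in Progenitor.1, 3 of 7 lower in Progenitor.2, 1 of 5 higher and 2 lower in Enteroendocrine, and 1 of 10 higher and 2 lower in Mesenchyme-Ptges. All genes had 1.08% higher and 0.933% lower, 1.14% lower, 6.64% higher and 9.2% lower, and 5.08% higher and 3.63% lower in these classes and directions, and no direction is read from so few members.

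**Figure D2:**
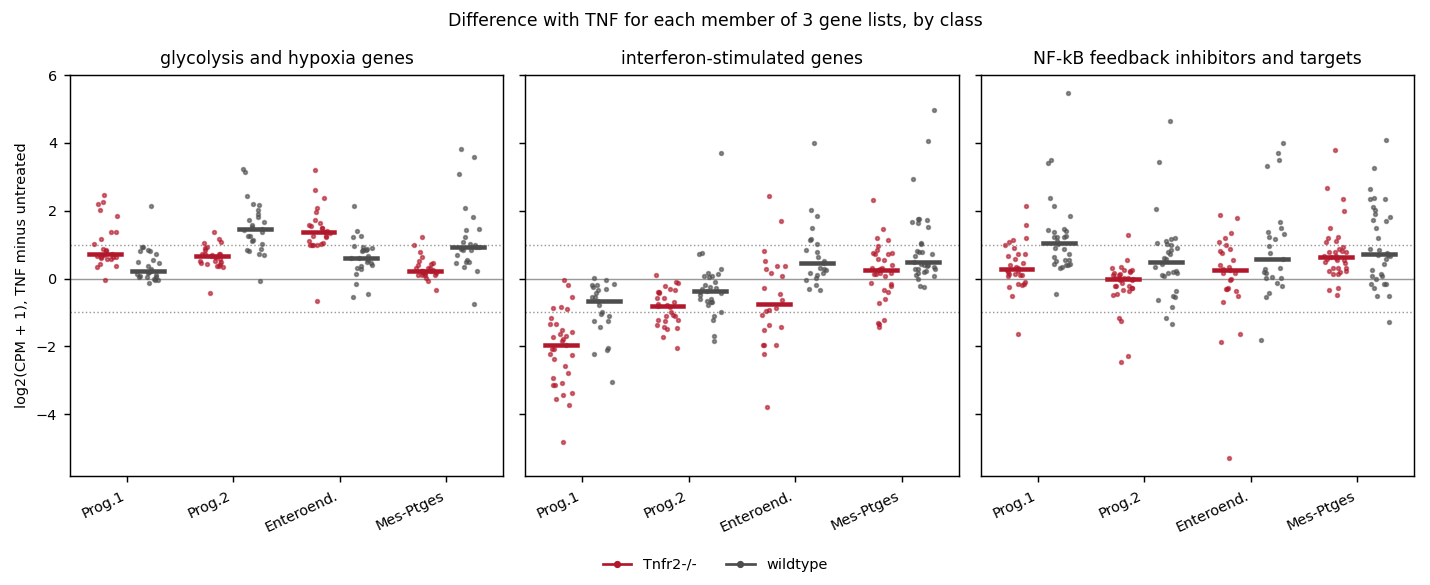
Log2 difference (TNF minus untreated) of single list members in each class, with Tnfr2-/- and wildtype side by side. Points are genes at 5 CPM or more, horizontal bars are medians, dotted lines mark 2-fold, and interferon-stimulated genes of Tnfr2-/- Progenitor.1 all lie below 0.

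In Progenitor.1, the cycling epithelial class, the remaining changes were a fall of immediate-early and regenerative genes and a rise of acute-phase and goblet genes. Fos, an AP-1 subunit, went from 631 to 203 CPM (3.11-fold lower, 2.92 to 3.31), Fosb from 113 to 25.2 CPM and Atf3 from 353 to 139.6 CPM, the 3 of 17 immediate-early genes that fell, beside 0.933% of all genes (median -0.32). In wildtype their differences were 0.64, 0.21 and 1.08. These genes also respond to tissue dissociation, and the part of handling was not tested. Of 20 regenerative epithelium genes 5 fell (median -0.50), namely Clu (312 to 97.3 CPM), Ly6d (258 to 92.4 CPM), Ly6c1 (109 to 32.8 CPM), Spp1 (35.4 to 1.36 CPM) and Msln.

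Goblet and deep secretory genes had 5 of 14 that rose in Progenitor.1, beside 1.08% of all genes (median 0.38), among them Tff3, a mucus-associated trefoil peptide (374 to 991 CPM), and Spink4 (134 to 507 CPM), or 3 without each gene's top cell. Goblet markers summed to 424 CPM untreated and 1141 CPM with TNF, and whether the rise came from cells of another class was not tested. Antimicrobial and acute-phase genes had 5 of 10 that rose, beside 1.08% of all genes, of which Saa3 went from 35.0 to 110 CPM. Among the rises of Progenitor.1, Reg3b and Reg3g had 100% and 94.1% of their TNF UMIs in 1 cell. S phase genes (0 of 22), mitosis genes (0 of 28) and Wnt and crypt stem cell genes (0 of 15, median 0.30) had none past the limit. Cells were assigned to classes by their expression, so these counts cannot show whether cells that stopped cycling were placed in another class.

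Several of the largest Progenitor.1 rises came from 1 cell. All 340 UMIs of Reg3b, an antimicrobial lectin, lay in 1 of 95 TNF cells, as did 96.1% of 279 Pyy UMIs, 94.1% of 136 Reg3g UMIs, 95.6% of 113 Mptx1 UMIs and 59.1% of 115 Chgb UMIs. Clps (3.68 to 44.3 CPM), Slc16a3 and Ceacam10 (5.50 to 32.0 CPM) were carried by more cells, with differences of 3.19, 2.54 and 2.37 without the top cells. Of the 65 genes that rose 44 (67.69%) did so without the top cells, and of the 56 that fell 55 (98.21%). Besides interferon targets and Spp1, the leading falls included Ccl5, a T cell chemokine found in 26 of 647 untreated cells (37.1 to 0.78 CPM), and Krt14, a basal keratin (41.4 to 2.15 CPM).

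**Figure D3:**
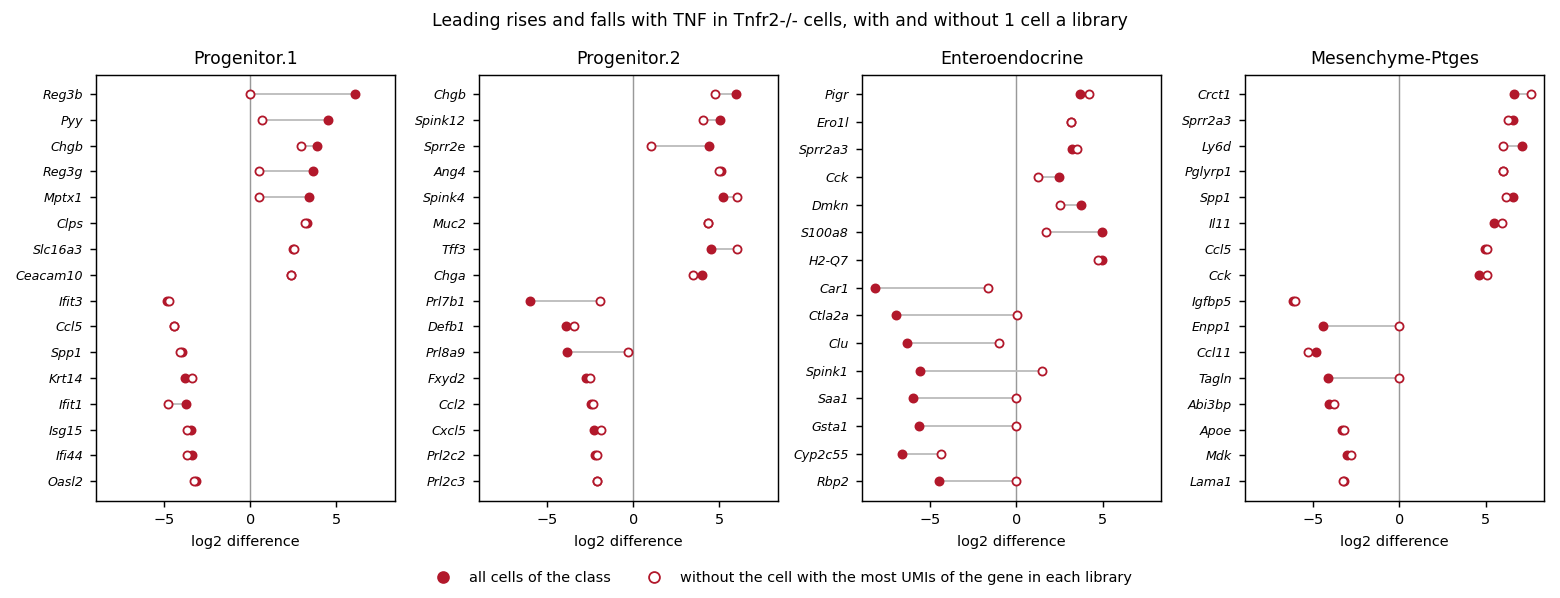
Log2 difference (TNF minus untreated, x axis) of the leading rises and falls of each Tnfr2-/- class, over all cells of the class (filled) and without the cell that held the most UMIs of the gene in each library (open). Open points near 0, such as Reg3b in Progenitor.1 and Saa1 in Enteroendocrine, are genes whose difference went away without 1 cell a library, while interferon targets such as Isg15 in Progenitor.1 hardly moved.

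In Progenitor.2 the rises were led by goblet cell genes. Of 11 tested goblet and deep secretory genes 8 rose, beside 0.844% of all genes, and none fell, with a median of 3.605 beside -0.12 over all genes, and 8 rose without each gene's top cell. Tff3 went from 74.4 to 1732 CPM (23.3-fold, 21.7 to 25.1), from 76 of 233 to 302 of 716 cells with a UMI. Spink4 went from 18.5 to 719 CPM, Fcgbp, a mucin-associated protein, from 10.4 to 207 CPM, and Agr2, which folds mucins, from 40.9 to 127 CPM. Muc2, the main gel-forming mucin, had 2 UMIs in 2 untreated cells and 800 UMIs in 55 TNF cells (0.20 to 23.7 CPM). Ang4, an antimicrobial ribonuclease of deep secretory cells, went from 0.40 to 45.8 CPM in 28 TNF cells.

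These counts lay in a minority of the class. The fewest cells that held 50% or more of the Tff3 UMIs were 17 of 716. After thinning, 8.44% (5.16% to 12.9%) of untreated and 20.6% (17.6% to 23.7%) of TNF cells had a Tff3 UMI, beside 5.88% and 4.17% in Mesenchyme-Ptges, a class that should lack it, at median depths of 21965 and 37645 UMIs per cell. The interval of the untreated share included that level and the interval of the TNF share lay above it. Wildtype Progenitor.2 gave 7 of 10 members that rose and a median of 2.99. Enteroendocrine markers summed to 1.61 CPM untreated and 109 CPM with TNF, and 62.2% of the 2728 Chgb UMIs lay in 1 cell, as did 94.9% of the 684 UMIs of Sprr2e and 51.5% of the 1085 UMIs of Spink12. The deposited class Secretory-Reg4-Spdef-Lyz1 held 63 cells (5.64%) of the untreated and 8 cells (0.82%) of the TNF-treated Tnfr2-/- library. Whether secretory cells grouped into Progenitor.2 account for the rise was not tested.

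The falls of Progenitor.2 included prolactin-family and chemokine genes. Prl2c2 went from 700.1 to 149 CPM and Prl2c3 from 756 to 177 CPM, in 89 and 81 of 233 untreated cells, and near-identical copies of this family may share reads. Prl7b1 and Prl8a9 rested on 1 untreated cell with 96.3% and 95.3% of their UMIs. Ccl2, the monocyte chemokine, went from 138 to 24.3 CPM in Tnfr2-/- and from 1.19 to 22.9 CPM in wildtype, so that the levels with TNF were close and the untreated ones apart. Its 1370 untreated UMIs came from 23 of 233 cells. Cxcl5, a neutrophil chemokine, went from 71.4 to 13.8 CPM, and Ptgs2, the inducible cyclooxygenase, from 119 to 49.6 CPM.

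The balance of rises and falls in Progenitor.2 depended on the scaling. With CPM 48 genes rose and 65 fell (42.48% higher), with TMM factors 75 and 46 (61.98%), with median-of-ratios size factors 71 and 47 (60.17%) and with totals that left out mitochondrial and ribosomal protein genes 76 and 66 (53.52%). The median over tested genes moved from -0.10 to 0.07 with TMM factors. Leaving out each gene's top cell, 38 of the 48 rises (79.17%) and 47 of the 65 falls (72.31%) were still past the limit.

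In Enteroendocrine, with 18 and 27 cells, most glycolytic genes rose, as given above. Pigr, the transporter of antibodies across epithelium, went from 13 to 155 UMIs (23.7 to 318 CPM, 13.4-fold, 7.61 to 25.7) with UMIs in 16 of 27 TNF cells. H2-Q7, a class I antigen-presenting molecule, went from 0 to 15 UMIs in 7 TNF cells. The MHC class I list had 4 of 17 genes that rose and 1 that fell, beside 6.64% and 9.2% of all genes. Slc18a1, the vesicle pump of serotonin cells, went from 151 to 334 CPM with UMIs in 26 of 27 TNF cells. Chga and Chgb, granule proteins, stayed within 2-fold at 6521 and 7772 CPM and at 23441 and 14148 CPM.

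Hormone genes in Enteroendocrine were carried by few cells. Of 30 tested hormone and granule genes 3 rose and 6 fell (median -0.41), beside 6.64% and 9.2% of all genes. Cck, cholecystokinin, went from 626 to 3507 CPM with 72.3% of its TNF UMIs in 1 cell, and Insl5, a colonic L cell hormone, from 3979 to 958 CPM with 99.4% of its TNF UMIs in 1 cell. Gcg, the proglucagon gene, went from 896 to 2520.3 CPM with 97.15% and 99.9% in 1 cell each, and its difference of 1.49 became -3.13 without them. Ghrl, ghrelin, went from 3029 to 1378 CPM with 79.8% of its untreated UMIs in 1 cell, and Pax6, a hormone-cell transcription factor, from 52.9 to 12.3 CPM.

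The leading falls of Enteroendocrine came from single untreated cells. One cell of 77925 UMIs held 477 of 478 Car1 UMIs, 656 of 659 Spink1 UMIs, and all of the untreated Saa1, Rbp2 and Gsta1 UMIs, together with 199 UMIs of Chga and 702 of Pyy. Another of 42811 UMIs held 577 of 588 Clu UMIs. Without the Car1-rich cell 472 genes rose and 600 fell, and 492 (73.43%) of the 670 falls remained. The absorptive colonocyte list went from 6 of 13 genes lower with a median of -1.28 to none lower, 3 higher and a median of 0.32, and the regenerative list from 13 of 18 lower to 9 lower. Leaving out each gene's top cell kept 362 of the 483 rises (74.95%) and 405 of the 670 falls (60.45%). Counting error was also wide, with intervals wholly past 2-fold for 71 rises and 106 falls.

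Mesenchyme-Ptges, the class of stromal cells named for prostaglandin E synthase, had rises among inflammatory genes and falls among matrix genes. Of 29 tested inflammatory fibroblast genes 9 rose and 4 fell, beside 5.08% and 3.63% of all genes (median 0.73 beside -0.06 over all genes), and in wildtype 14 of 31 rose and 7 fell (median 0.53). Il11, a fibroblast cytokine of the interleukin 6 family, had 4 UMIs in 3 of 37 untreated cells and 1239 UMIs in 63 of 122 TNF cells (4.80 to 260 CPM). Il1rl1, the interleukin 33 receptor ST2, went from 103 to 1738 CPM (16.8-fold, 13.6 to 21.1) with UMIs in 110 TNF cells. Both enzymes that lead to prostaglandin E2 rose, Ptges from 97.3 to 550.4 CPM (5.66-fold, 4.53 to 7.15) and Ptgs2 from 822 to 1767 CPM.

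Ptges had a UMI in 32.4% (17.4% to 50.5%) of untreated and 92.5% (86.2% to 96.5%) of TNF cells after thinning, or 73.0% and 99.2% unthinned, beside 0.311% and 1.06% in Progenitor.1. Lcn2, an iron-scavenging antimicrobial protein, went from 973 to 3898 CPM, Csf1, the macrophage growth factor, from 132 to 311 CPM, Mmp9, a matrix protease, from 15.6 to 84.0 CPM, and Tnip3, an A20-binding NF-kB inhibitor, from 7.21 to 50.7 CPM. Cck went from 49.2 to 1250 CPM (25.4-fold, 18.7 to 35.4), from 7 of 37 to 80 of 122 cells. Il6 had 0 and 6 UMIs and Il33 0 and 1, so these cytokines were at or near the counting floor of 3 UMIs.

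Some matrix genes fell in the same cells. Of 28 collagen and matrix genes 9 fell and 2 rose, beside 3.63% and 5.08% of all genes (median -0.63), and in wildtype 18 of 30 fell and 1 rose (median -1.33). Col1a1, the main chain of type I collagen, went from 1638 to 406 CPM (4.04-fold lower, 3.76 to 4.33), Postn, periostin, from 1152 to 278 CPM, and Lum, lumican, from 167 to 31.4 CPM. Col5a3 (155 to 458 CPM) and Thbs2 (179 to 395 CPM) rose. Igfbp5, an insulin-like growth factor binding protein, went from 96 to 3 UMIs (115 to 0.63 CPM), Igf1 from 1109 to 494 CPM, and Rspo3, a Wnt-enhancing niche signal, from 143 to 54.9 CPM, the 3 of 20 niche genes that fell. None of that list rose, and its median was 0.12 with 14 members above 0 and 10 below. Ccl11, eotaxin, went from 130 to 3.56 CPM with 35.2% of the untreated UMIs in 1 cell, while Apoe (377 to 36.3 CPM) and Abi3bp (99.7 to 5.03 CPM) were carried by 21 and 18 untreated cells. Enpp1 and Tagln rested on 1 untreated cell each.

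Epithelial RNA moved with TNF in the Mesenchyme-Ptges cells. Epithelial markers summed to 54.0 CPM untreated and 823 CPM with TNF, all 6 tested rose (median 3.67), and Cdh1 was at 0 in the untreated sum. Of the cells in which such markers exceeded 0.1% of UMIs 16 had TNF and 1 had none. Without these 17 cells the difference fell from 6.59 to 1.08 for Sprr2a3, from 7.12 to 1.90 for Ly6d and from 2.17 to 0.60 for Clu, and the regenerative list went from 9 to 4 genes that rose (median 2.17 to 0.50). Differences without those cells were 5.22 for Il11, 4.72 for Cck and 5.19 for Ccl5, a chemokine with 48.5% of its TNF UMIs in 1 cell (14.4 to 477 CPM), and 10 inflammatory fibroblast genes rose and 3 fell.

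With TMM factors 422 genes rose and 163 fell in Mesenchyme-Ptges (72.14% higher) and with median-of-ratios size factors 386 and 166 (69.93%), beside 316 and 226 with CPM (58.3%). Leaving out each gene's top cell, 283 of the 316 rises (89.56%) and 145 of the 226 falls (64.16%) were still past the limit.

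Summing both progenitor classes before comparing gave a different picture, because the share of their UMIs that came from Progenitor.1 went from 78.75% untreated to 13.19% with TNF. In the joint sum 352 of 6133 genes rose (5.74%) and 515 fell (8.4%), several times as many as in either class. Of these, 285 (80.97%) and 491 (95.34%) did not differ by 2-fold or more in the same direction in either class. Some moved the other way within a class, such as S100a8 at 1.486 in the joint sum and -2.395 in Progenitor.1. The part of the change due to the shift between classes was larger than the part within classes for 311 (88.35%) of the rises and 482 (93.59%) of the falls.

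**Figure D4:**
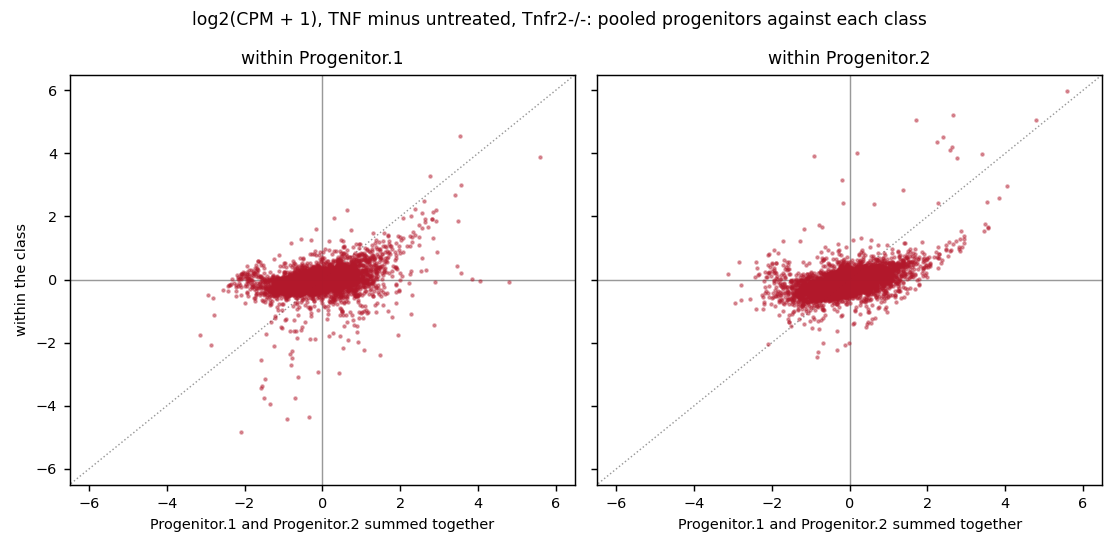
Log2 difference with TNF in the joint sum of Progenitor.1 and Progenitor.2 Tnfr2-/- cells against the difference within each class. Points that lie far from 0 on the joint axis and near 0 on the other are genes whose joint change came from the shift between classes. Most genes past the limit in the joint sum did not differ by 2-fold or more in the same direction within either class.

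The same contrast in wildtype cells of these classes gave 108 of 5855 genes higher (1.84%) and 36 lower (0.615%) in Progenitor.1, 246 of 5749 (4.28%) and 183 (3.18%) in Progenitor.2, 285 of 6902 (4.13%) and 128 (1.85%) in Enteroendocrine, and 929 of 6917 (13.4%) and 760 (11%) in Mesenchyme-Ptges. The wildtype untreated Mesenchyme-Ptges cells were shallow, at a median of 5755 UMIs and 16.7% mitochondrial UMIs per cell. The 62 wildtype untreated Progenitor.2 cells had a median of 15574.5 UMIs and 9.70% mitochondrial UMIs, against 39167 UMIs and 4.32% with TNF, and the part of this in the wildtype values of both classes was not tested. Among genes tested in both genotypes, the shared rises were 16 in Progenitor.1 (35.56% of the Tnfr2-/- and 18.82% of the wildtype rises), 22 in Progenitor.2 (78.57% and 11.28%), 49 in Enteroendocrine (14.67% and 22.27%) and 97 in Mesenchyme-Ptges (43.11% and 12.14%). The shared falls were 16 in Progenitor.1 (43.24% and 61.54%), 27 in Progenitor.2 (54% and 21.6%), 16 in Enteroendocrine (3.6% and 21.05%) and 81 in Mesenchyme-Ptges (41.75% and 17.46%). The Progenitor.2 share refers to the 28 of 48 Tnfr2-/- rises that were tested in both genotypes. Tnfr2-/- Mesenchyme-Ptges cells had 0 UMIs of Xist, the RNA that silences an X chromosome in female cells, and 64.9 and 70.0 CPM of the Y-linked gene Ddx3y, untreated and with TNF, whereas the wildtype cells of this class had 1679 and 549 CPM of Xist and at most 3 UMIs of Ddx3y. Tnfr2-/- epithelial classes had next to no counts of either, and wildtype Progenitor.1 had 670.4 and 830.1 CPM of Xist. The genotypes thus differed in the sex-linked transcripts of their cells, and the part of that in any value set beside wildtype cannot be told apart from genotype. Differences between the genotypes were not tested, with 1 library in each group.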

How the data were processed

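The deposited matrix held UMI counts of 30360 genes in 6155 cells, which the authors made from 10x Chromium 3' libraries with Cell Ranger 5.0.0 and mm10 (submitters' processing notes) after leaving out shallow cells and doublets of epithelial and mesenchymal cells. The authors also deposited a class for each cell, from monocle3 clustering, which was used as given, and a size factor, a score that was not used, as were the plotting coordinates. Of the Tnfr2-/- cells, 202 in classes with fewer than 15 cells in a library were left out. The cell with the fewest UMIs had 894.

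Counts were summed over cells for each class and library and scaled to CPM, and differences were taken as log2(CPM + 1). Genes passed the limit at 2-fold with 20 CPM or more in at least 1 sum. Ratios have exact conditional binomial 95% intervals, shares of cells exact Clopper-Pearson 95% intervals after each cell was thinned to 5000 UMIs, and a count of 0 allows up to 3 counts. The intervals cover counting error only, and no test was possible with 1 library a group. List medians used members with a mean of 5 CPM or more. The arithmetic that splits the joint progenitor change took changes in class levels at mean class weights and changes in class weights at mean class levels. The calculation was tested on simulated data.

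The text names the 8 rises and 8 falls of each class whose interval bound nearest to 1 was the most extreme, 8 rises and 5 falls across the classes, the 3 genes at each end of the Tnfr2-/- difference minus the wildtype difference in each class, and members of gene lists, among which those with values were picked after the values were seen. Some genes that the rule selects are not reported here. The members and lists were chosen with earlier results of these data known, and the fetal intestine list is a reference list given by the study.

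Alternatives were pseudocounts of 0.1 and 10 CPM, no minimum and a minimum of 50 CPM, TMM factors, median-of-ratios size factors, the mean over cells of each cell's CPM, cells of 10000 or more UMIs, no scrublet doublets (4 among the Tnfr2-/- cells used, at an expected rate of 0.06, which the values in the text include), no cells with over 0.1% of UMIs from markers of the other compartment, and totals without mitochondrial and ribosomal protein genes. Leaving out each gene's top cell, and leaving out the Car1-rich Enteroendocrine cell, were added after the data were seen.

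Gene positions came from GENCODE M21 on GRCm38 (30240 identifiers matched and 120 did not) and promoters from RefSeq on GRCm38.p6. Python 3.11.15, numpy 2.4.6, pandas 2.3.3, scipy 1.17.1, scanpy 1.11.5, matplotlib 3.10.9, R 4.3.3 and, for TMM factors alone, edgeR 4.0.16 were used.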

Additional observations from a re-analysis of the deposited data

Results flagged for a closer look

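In 12 cases among the genes chosen by the rule for named genes, a gene passed the 2-fold limit in one direction in Tnfr2-/- cells and in the other in wildtype cells of the same class, with both counting intervals on that side. Each value below is the Tnfr2-/- log2 difference with TNF minus the wildtype one, and with 1 library a group none of these was tested. Over all genes tested in both genotypes, those that rose in Tnfr2-/- cells and fell in wildtype numbered 0, 0, 11 and 8 in Progenitor.1, Progenitor.2, Enteroendocrine and Mesenchyme-Ptges, and those that fell in Tnfr2-/- cells and rose in wildtype 2, 6, 25 and 20, whatever their counting intervals.

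In Progenitor.1 the value was -2.42 for Atf3, a stress-induced transcription factor that went from 353 to 139.6 CPM in Tnfr2-/- cells and from 203 to 431 CPM in wildtype cells. In Progenitor.2, where the wildtype untreated sum came from 62 cells with a median of 15574.5 UMIs, it was -7.54 for Defb1, a beta-defensin (37.2 to 1.57 CPM, wildtype 1.19 to 26.4 CPM), -5.905 for Ccl2 (138 to 24.3 CPM, wildtype 1.19 to 22.9 CPM) and -4.40 for Cst6, a cysteine protease inhibitor (235 to 87.2 CPM, wildtype 8.34 to 72.8 CPM). For all 3 the Tnfr2-/- sum was the higher one untreated. Of the untreated Cst6 UMIs 27.3% lay in 1 cell.

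In Enteroendocrine the values rested on small sums. They were -8.05 for Aqp4, a water channel (14 to 0 UMIs, wildtype 1 to 21), -5.64 for Slc39a4, a zinc importer (21 to 1 UMIs, wildtype 4 to 23), and -5.54 for Ly6a, a surface antigen of regenerating epithelium (166 to 12 UMIs, wildtype 7 to 39). The other direction held for Ooep at 6.86 (6 to 30 UMIs, wildtype 198 to 11), for Gcg at 5.29 (491 to 1229 UMIs, wildtype 3677 to 349) and for Cpeb2, which regulates translation, at 4.67 (3 to 34 UMIs, wildtype 22 to 12). Cpeb2 was found in 19 of 27 TNF cells, while 90% of the Ooep UMIs with TNF lay in 1 cell. Of the Tnfr2-/- Gcg UMIs 97.15% untreated and 99.92% with TNF lay in 1 cell. Without these cells the Tnfr2-/- difference of Gcg was -3.13, the direction of wildtype.

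In Mesenchyme-Ptges the value was -7.54 for Tagln, a contractile gene with 20 UMIs untreated and 2 with TNF, in 1 cell each, and with 1 and 591 UMIs in wildtype. It was 4.865 for Lgals4, an epithelial galectin (7 to 358 UMIs in 40 of 122 TNF cells, wildtype 15 to 167). The Tnfr2-/- difference of Lgals4 was 3.01 in all cells and 0.53 without the cells that held epithelial markers.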

How the results depend on the processing

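Counts of genes past the limit depended mostly on the minimum and the pseudocount. With a pseudocount of 10 CPM, no minimum and a minimum of 50 CPM, the 65 rises of Progenitor.1 became 40, 180 and 34 and its 56 falls 37, 215 and 25. In the same order the 483 rises of Enteroendocrine became 263, 1894 and 224, its 670 falls 358, 2481 and 254, the 316 rises of Mesenchyme-Ptges 201, 1628 and 146, its 226 falls 116, 1029 and 103, and the 65 falls of Progenitor.2 40, 181 and 35. The 48 rises of Progenitor.2 became 138 with no minimum, 25 with a minimum of 50 CPM, 75 with TMM factors and 76 with totals without mitochondrial and ribosomal protein genes. The falls of Mesenchyme-Ptges became 402 with the mean over cells (371 rises) and 148 without each gene's top cell. In Enteroendocrine TMM factors moved the share of rises among genes past the limit from 41.89% to 50.18%.

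Without the top cells, direction changed for Prl2a1 in Progenitor.2 (0.078), for Ctla2a (0.059), Spink1 (1.503), Gcg (-3.13), Isg15 (2.46) and the absorptive median (0.00206) in Enteroendocrine, and for Ifit1 in Mesenchyme-Ptges (0.25). Without the Car1-rich cell it changed for Spink1 (1.795), Saa1 (2.35), Gsta1 (1.61), Rbp2 (3.73) and the absorptive median (0.32). With the mean over cells it changed for Clu in Mesenchyme-Ptges (-0.30). The cause was not tested, beyond the cells left out. Direction was checked only for named genes past the limit and for list medians of at least 2-fold in size. Of 247 values of named genes, 203 kept the side of the limit without the top cells, 209 with a minimum of 50 CPM and 223 with the mean over cells. Between 229 and 245 kept it under the other settings run in every class. For genes past the limit this includes the direction, and for the others a change of sign was not counted. No paired analysis was possible because each group had 1 library and no test was made, and leaving out a library would have left none. Enteroendocrine, with 18 and 27 cells, was limited most by depth.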

Other observations

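List counts below stand beside the shares of all genes that rose and fell, which were 1.08% and 0.933% in Progenitor.1, 0.844% and 1.14% in Progenitor.2, 6.64% and 9.2% in Enteroendocrine and 5.08% and 3.63% in Mesenchyme-Ptges. Outside the lists described above, the Mesenchyme-Ptges class showed further changes in Tnfr2-/- cells. Of 11 antimicrobial and acute-phase genes 7 rose and 1 fell (median 1.94). Haptoglobin (Hp) went from 8.41 to 98.5 CPM, S100a8, a calprotectin subunit, from 158 to 611 CPM and Pglyrp1, a peptidoglycan-binding protein, from 3.603 to 293 CPM. Saa3, an acute-phase serum amyloid and one of the most abundant transcripts of these cells, went the other way, from 23618 to 10894 CPM, and in wildtype it went from 8198 to 12394 CPM. Without cells that held epithelial markers 5 of these genes rose and 0 fell, and the Pglyrp1 difference went from 6.00 to 2.54. Spp1, osteopontin, had 0 UMIs untreated and 465 with TNF (97.5 CPM), and its difference was 6.62 in all cells and 6.86 without those cells.

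Of 16 YAP and TEAD target genes 3 rose in Mesenchyme-Ptges and 0 fell (median 0.45), namely Ctgf, Areg (9.61 to 52.2 CPM) and F3, or 1 without the cells with epithelial markers. Of 148 fetal intestine genes 27 rose and 7 fell there, or 20 and 7 without those cells. Apoptosis and survival genes had 2 of 23 higher, Pmaip1 (15.6 to 59.7 CPM) and Mdm2 (93.7 to 212.5 CPM), and 1 lower, Fas (39.6 to 10.5 CPM). Retinoid genes had 2 of 7 higher, Rdh10 and Cyp26b1, and contractile genes 2 of 9 lower, Acta2 (74.5 to 13.4 CPM) and Tagln. Nitric oxide and superoxide enzymes had 2 of 8 higher, Nos2 and Gpx2. Of 7 junction and barrier genes 5 rose (median 3.19), and none did without the cells with epithelial markers. MHC class I genes had 2 of 23 higher, immediate-early genes 3 of 21 higher and 2 lower, Wnt and stem cell genes 2 of 10 higher and 1 lower, absorptive genes 2 of 3 higher, goblet genes 1 of 2 lower, hormone genes 1 of 4 higher, S phase genes 3 of 9 lower and mitosis genes 2 of 6 lower.

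In Enteroendocrine 35 of 120 fetal intestine genes fell and 9 rose (median -0.43), or 27 and 10 without the Car1-rich cell. S100a6, a calcium-binding protein, went from 2697 to 861 CPM there and Anxa1 from 255 to 55.4 CPM, one of 3 of 8 YAP and TEAD targets that fell. S phase genes had 5 of 7 lower and mitosis genes 1 of 1 lower, and 1 of 3 S phase genes was lower without the Car1-rich cell. Retinoid genes had 3 of 3 lower, at 251 UMIs untreated and 41 with TNF summed over the list. All 164 untreated UMIs of Rbp2, a retinol-binding protein gene, lay in the Car1-rich cell, and its difference was 3.73 without that cell. Nitric oxide and superoxide enzymes had 1 of 7 lower (Noxo1) and contractile genes 0 of 4 in either direction. Apoptosis genes had 1 of 22 in each direction and junction and barrier genes 1 of 17 in each direction. Antimicrobial genes had 1 of 6 higher and 3 lower, goblet genes 3 of 11 higher and 2 lower, Wnt and stem cell genes 2 of 14 higher and 3 lower, and immediate-early genes 3 of 20 higher, with Fosb going from 47.4 to 123 CPM, and 1 lower.

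Among the progenitor classes, antimicrobial genes had 5 of 13 that rose in Progenitor.2 (median 0.72), with Saa3 going from 214 to 486 CPM and Lyz1, lysozyme, from 2.02 to 25.7 CPM. Hormone genes had 3 of 4 higher in Progenitor.2, and 2 of 4 higher and 1 lower in Progenitor.1. Fetal intestine genes had 1 of 130 higher and 10 lower in Progenitor.1 (median -0.15), and 1 of 166 higher and 9 lower in Progenitor.2 (median -0.24). YAP and TEAD targets had 1 of 13 lower in Progenitor.1 and 0 of 14 past the limit in Progenitor.2. Apoptosis genes had 1 of 24 higher in Progenitor.1, Tnfsf10 (7.35 to 22.6 CPM), which encodes the death ligand TRAIL, and 0 of 23 past the limit in Progenitor.2. Junction and barrier genes had 1 of 17 higher in Progenitor.1, the antibody transporter Pigr (112 to 229.5 CPM), and 0 of 17 in Progenitor.2.

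MHC class I genes had 0 of 13 past the limit in Progenitor.1 and 0 of 12 in Progenitor.2, with medians of -0.15 and -0.35. Retinoid genes had 0 of 1 and 1 of 4 higher, the latter Aldh1a3, which makes retinoic acid (125.5 to 255.5 CPM), and contractile genes 0 of 5 in both. Absorptive genes had 2 of 10 higher and 3 lower in Progenitor.1, where Car1 went from 115 to 48.75 CPM, and 2 of 13 lower in Progenitor.2. S phase and mitosis genes had 0 of 2 each and Wnt and stem cell genes 0 of 11 past the limit in Progenitor.2, where immediate-early genes had 1 of 20 lower (Hspb1) and regenerative genes 1 of 23 lower. Among genes that set Progenitor.1 apart from wildtype, Ifitm3, an interferon-induced membrane protein, went from 291 to 85.2 CPM against 145 to 264 CPM in wildtype, and Sval1 from 43.5 to 192 CPM against 136 to 97.0 CPM. Aqp4 rose in Progenitor.1 of both genotypes, from 23.03 to 111 CPM in Tnfr2-/- and from 28.5 to 112 CPM in wildtype.

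The 13 mitochondrially encoded genes were all within 2-fold in each class, with medians of -0.004, 0.29, -0.09 and -0.44 in Progenitor.1, Progenitor.2, Enteroendocrine and Mesenchyme-Ptges. In Tnfr2-/- cells tuft cell markers were at most 0.86 CPM in the 3 epithelial classes but 303 and 258 CPM in Mesenchyme-Ptges, where Trpm5 and Gnat3 were at 0 in both libraries. Immune markers were at most 16.8 CPM and endothelial markers at most 6.26 CPM in any class, with Ptprc and Cd3e at 0 in Mesenchyme-Ptges. Eif2s3y, Uty and Kdm5d, which are Y-linked like Ddx3y, were found in Tnfr2-/- Mesenchyme-Ptges at 33.6 and 33.1, 15.6 and 17.8, and 9.61 and 14.04 CPM, untreated and with TNF. Medians by autosome, relative to all genes, lay between -0.15 and 0.07 in Enteroendocrine, -0.03 and 0.10 in Mesenchyme-Ptges, -0.04 and 0.05 in Progenitor.1 and -0.04 and 0.05 in Progenitor.2. The X chromosome was at -0.03, -0.11, -0.002 and -0.01 in the same order of classes.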
